A study of Mus musculus with 12 samples.

Results

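The genes described here encode the subunits of mouse oxidative phosphorylation, the 5 protein complexes of the mitochondrial inner membrane that oxidize NADH and succinate and make ATP. Members were the protein-coding genes whose symbols begin with Ndufa, Ndufb, Ndufc, Ndufs or Ndufv (without the Ndufaf assembly factors), Sdha to Sdhd, Uqcr, Cyc1, Cox4 to Cox8, Atp5, mt-Nd, mt-Co, mt-Atp or mt-Cytb. This symbol rule, which used no measured value, found 99 of the 49315 genes in the count tables. Of these, 86 lie in the nuclear genome (38 for complex I, 4 for complex II, 9 for complex III, 18 for complex IV and 17 for complex V) and 13 in the mitochondrial genome (7, 0, 1, 3 and 2). The rule takes symbols at face value. Ndufa4 and Ndufa4l2 are counted under complex I although the Ndufa4 protein is now placed in complex IV, Cox7a2l is a supercomplex assembly factor, and Atp5s is a coupling factor of ATP synthase.

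The libraries came from primary mouse adult fibroblasts (MAFs) of C57BL/6 wild-type animals (WT) and of animals without BMAL1, a transcription factor of the circadian clock (BMAL1 -/-, hereafter KO). The cells were grown at 37 °C in 3% O2, and WT control and KO control cells were sham irradiated, whereas WT senescent and KO senescent cells received 20 Gy of X-rays, a dose that stops division through DNA damage. Per the study's methods, irradiated cells were kept in culture for weeks after the X-rays, and the matching time for controls is not given. Time in culture and irradiation may therefore go together. All 12 cultures, controls included, then had 100 nM dexamethasone for 2 h, a steroid pulse that sets their clocks to a common phase, and were collected 12 h later. Each group had 3 libraries of poly(A) RNA, and nothing in the labels says whether they came from separate animals or separate cultures, so p-values measure the spread between these libraries, which may be technical. Each genotype was deposited as a table of its own, so genotype and the handling of a table cannot be told apart.

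Complex I (NADH dehydrogenase) and complex II (succinate dehydrogenase) pass electrons to ubiquinone, complex III passes them on to cytochrome c, and complex IV (cytochrome c oxidase) passes them to oxygen. The proton gradient that complexes I, III and IV build is spent by complex V, the ATP synthase, which turns on a ring of c subunits. Complex II is encoded by the nucleus alone. The other complexes join nuclear subunits to a core that the small circular mitochondrial genome encodes, so the 2 genomes have to supply one machine. Several nuclear subunits of complex IV exist as pairs of isoforms from separate genes, one found in most tissues and one typical of muscle, lung or testis.

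Library totals were 23923030 to 31736083 counts. Levels are given in CPM, counts relative to library size, after TMM scaling, which sets a factor per library from the genes that differ least. Passed means a Benjamini-Hochberg adjusted p under 0.05 over the 17416 genes tested with edgeR. Of the 99 members, 95 were tested, and Cox7a1, Cox7b2, Cox8b and Cox8c were too low. Bmal1, listed as Arntl, stood at 29.8 to 33.2 CPM in WT control and 35.2 to 37.3 in WT senescent libraries. The libraries labelled KO had 11.8 to 15.2 CPM in control and 25.3 to 27.4 in senescent cells. Each KO library was below each WT library. Arntl rose in KO senescence (log2 fold change 1.02 ± 0.086 (SE), adjusted p = 1.96e-09) and less in WT (0.20 ± 0.080 (SE), adjusted p = 0.0415). Its responses differed by 0.82 ± 0.12 (SE), adjusted p = 7.57e-05. Whether these reads lie in the deleted part is not given in the sources used here. All 10 fibroblast markers were detected, and their sum was 20009 to 20818 CPM in WT control, 9865 to 10269 in WT senescent, 24961 to 26326 in KO control and 11765 to 12191 in KO senescent libraries. Single fibroblast markers moved both ways. In WT senescence 6 of the 10 passed as higher and 4 as lower (median log2 fold change 0.58). In KO 4 passed as higher and 5 as lower (median 0.063). Myofibroblast markers summed to 1785 to 2012 CPM in WT control and 1445 to 1545 in WT senescent libraries. In KO they summed to 2027 to 2345 CPM in control and 1966 to 2116 in senescent libraries. Of these 5 markers, 4 passed as higher in KO than in WT among controls and 5 among senescent cells, beside 8.07% and 11.9% of all genes. Markers of macrophages, endothelium and melanocytes summed to 0.841 to 16.0 CPM each. The summed markers of 3 more cell types were low but higher in senescent cells. Of 3 brown adipocyte markers tested, 2 passed as higher in WT senescence and 1 in KO, where their median log2 fold change was 0.059. Adipocyte markers passed as higher for 2 of 3 in WT and 3 of 3 in KO, and keratinocyte markers for 2 of 2 in both. The sum of brown adipocyte markers went from 3.56 to 6.14 CPM in WT control up to 12.5 to 14.3 in WT senescent, and from 5.19 to 5.75 in KO control up to 18.7 to 21.6 in KO senescent libraries. Adipocyte markers lay at 8.52 to 9.79, 16.4 to 23.2, 6.86 to 8.68 and 15.9 to 19.7 CPM, and keratinocyte markers at 2.57 to 4.72, 7.17 to 9.25, 2.24 to 3.84 and 8.33 to 9.04 CPM in the groups in that order. The 6 chondrocyte markers moved with senescence too, their sum ranging over 7141 to 8812 CPM in WT control, 1961 to 2279 in WT senescent, 4756 to 6444 in KO control and 634 to 735 in KO senescent libraries, with none of the 6 at 0. The part of these markers in the results below was not tested. In a bulk library, fewer cells of a type and less RNA per cell cannot be told apart.

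Promoters of the nuclear members were set beside the changes because BMAL1 binds the E-box and because NRF1, ETS-family factors such as GABP, and YY1 are known regulators of respiratory genes. Windows of 250 bases before to 50 bases after a RefSeq start (GRCm38.p6) were matched for 67 of the 86 nuclear members. The letters searched on both strands were GCATGCG for the NRF1 core, CCGGAA for the ETS core, AAGATGG for the YY1 core and CACGTG for the E-box (the E-box reads alike on both strands, and matches may overlap). Among the 72 windows of members, 15.3% held the NRF1 core, against 3.58% of all 32851 windows. The ETS core was in 36.1% against 14.9%, and the YY1 core in 13.9% against 6.34%. The E-box was in 8.33% of the members' windows and in 7.15% of all windows. Its holders were Atp5g1, Atp5g3, Atp5l, Ndufa7 and Ndufv1, of which Ndufa7 passed in 1 comparison of genotypes, among senescent cells, and the other 4 in none. Ndufa4l2, Cox4i2, Uqcrq and Cox6c, which also passed in a comparison of genotypes, had no matched window and were not searched. The search therefore covers only part of the members that differed by genotype. These are letter matches, not binding sites. Of the sequences below, Atp5j and Atp5l belong to the complex V genes described next and hold 3 kinds of match each, Ndufa7 is shown as a holder of the E-box, and Uqcr10, whose senescence response differed by genotype, holds none of the 4. Capitals mark the matches, and the CGCATGCG runs hold the NRF1 core on both strands at once.
Atp5j, GRCm38.p6 chr16:84834927-84835226, minus strand: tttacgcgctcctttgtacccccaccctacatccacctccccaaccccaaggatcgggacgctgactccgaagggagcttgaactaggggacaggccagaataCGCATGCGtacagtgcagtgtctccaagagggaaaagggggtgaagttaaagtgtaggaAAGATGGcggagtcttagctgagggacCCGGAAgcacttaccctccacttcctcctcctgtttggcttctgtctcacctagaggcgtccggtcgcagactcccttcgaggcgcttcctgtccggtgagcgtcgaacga
Atp5l, GRCm38.p6 chr9:44920693-44920992, minus strand: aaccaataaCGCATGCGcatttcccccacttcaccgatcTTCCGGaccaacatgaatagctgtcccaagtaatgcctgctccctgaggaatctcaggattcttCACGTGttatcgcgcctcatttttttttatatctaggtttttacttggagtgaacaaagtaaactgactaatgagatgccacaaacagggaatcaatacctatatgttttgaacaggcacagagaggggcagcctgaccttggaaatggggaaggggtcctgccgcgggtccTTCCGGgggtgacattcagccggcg
Ndufa7, GRCm38.p6 chr17:33824322-33824621, plus strand: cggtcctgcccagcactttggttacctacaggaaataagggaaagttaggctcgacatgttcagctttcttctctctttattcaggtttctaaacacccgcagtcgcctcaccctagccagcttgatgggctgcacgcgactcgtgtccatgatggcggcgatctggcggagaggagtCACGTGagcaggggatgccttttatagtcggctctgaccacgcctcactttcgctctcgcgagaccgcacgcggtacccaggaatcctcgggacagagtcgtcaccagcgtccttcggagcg
Uqcr10, GRCm38.p6 chr11:4704295-4704594, minus strand: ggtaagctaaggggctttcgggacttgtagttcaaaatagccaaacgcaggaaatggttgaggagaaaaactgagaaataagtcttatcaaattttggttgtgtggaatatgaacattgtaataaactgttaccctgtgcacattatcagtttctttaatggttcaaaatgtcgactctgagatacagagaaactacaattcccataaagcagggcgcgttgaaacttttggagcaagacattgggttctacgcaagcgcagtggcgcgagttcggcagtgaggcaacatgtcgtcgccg

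Of the 5 complexes, ATP synthase showed the largest change in summed level. Summed over its 17 nuclear genes, complex V stood at 2382, 2292 and 2499 CPM in the WT control libraries and at 1789, 1787 and 1777 in the WT senescent ones. In KO cells it stood at 2417, 2213 and 2204 CPM in control and at 1766, 1832 and 1920 in senescent libraries. In both genotypes every senescent library was below every control library. Group means were 2391 ± 104 and 1784 ± 6.58 CPM in WT, and 2278 ± 121 and 1840 ± 77.2 in KO (SD, n = 3). The other complexes moved less. Complex I summed to 1442 ± 48.6 CPM in WT control and 1413 ± 12.9 in WT senescent libraries, with overlapping values, and to 1429 ± 76.8 and 1451 ± 75.3 in the KO groups, which overlapped as well. WT control cells had 505 ± 20.0 CPM of complex III and WT senescent cells 430.5 ± 3.73, while the KO groups, at 465 ± 34.2 and 448 ± 18.2, overlapped. For complex II the sums were 485 ± 19.7 and 448 ± 14.1 CPM in the WT pair of groups, and 469 ± 11.8 and 439.9 ± 10.3 in the KO groups, without overlap in either genotype. Complex IV changed from 852 ± 21.9 to 766 ± 13.6 CPM in WT cells, without overlap, and the KO groups overlapped at 824 ± 52.9 and 821 ± 63.4 CPM. As shares of the raw library totals, without TMM, part of these directions turned. Complex V was still lower without overlap, at means of 0.228% and 0.191% of counts in WT and 0.214% and 0.192% in KO, and complex III stayed lower in WT (0.0481% and 0.0461%) but not in KO (0.0437% and 0.0468%). Complex I was higher in senescence without overlap in both genotypes, at 0.136% to 0.139% in WT control, 0.150% to 0.153% in WT senescent, 0.130% to 0.143% in KO control and 0.143% to 0.160% in KO senescent libraries. Complex II was also higher on average (0.0461% and 0.0480% in WT, and 0.0440% and 0.0459% in KO), as was complex IV (0.0811% and 0.0820%, and 0.0774% and 0.0857%), both with overlap. The library KO control 1 had the highest sum of nuclear members among the KO controls (5805 CPM, against 5318 and 5269), and KO senescent 1 the lowest among the KO senescent libraries (4750, against 5014 and 5236).

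**Figure D1:**
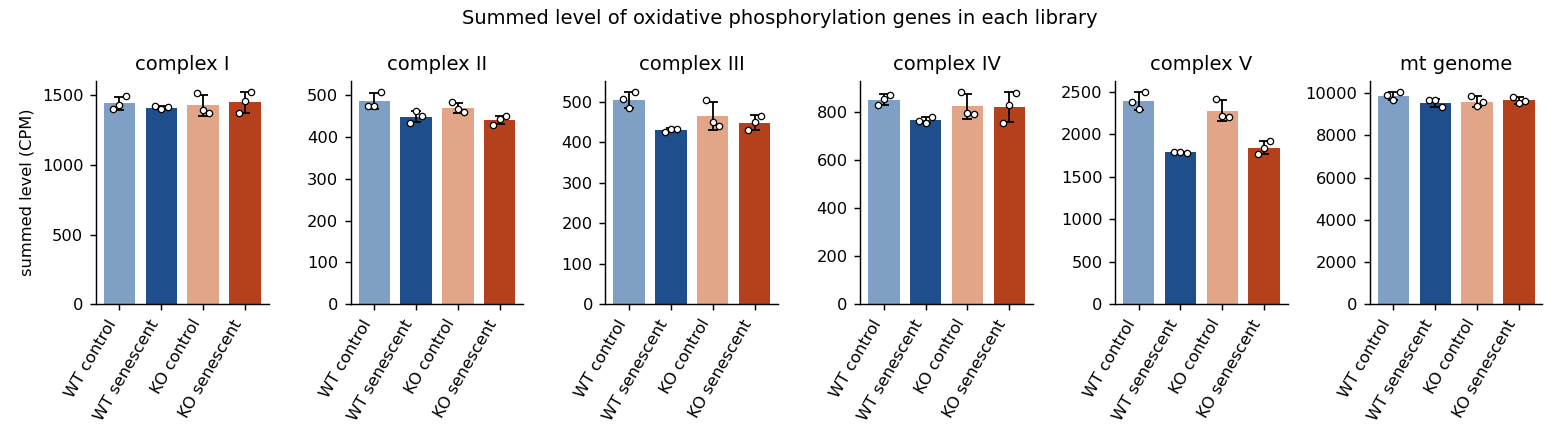
Summed level (CPM, y axis from 0) of the nuclear genes of complexes I to V and of the 13 mitochondrial genes in the 4 groups. Bars are means of 3 libraries, error bars 1 SD and white points single libraries, and the complex V bars are lower in senescent cells, at 1784 against 2391 CPM in WT and at 1840 against 2278 CPM in KO.

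In WT cells, 6 of the 82 nuclear members tested were higher in senescence and 31 were lower, which is 7.32% and 37.8%, whereas 29.2% and 27.0% of all 17416 genes passed in those directions. The median log2 fold change was -0.12 over the nuclear members and 0.024 over all genes. In KO cells 14 were higher and 17 lower (17.1% and 20.7%), beside 28.5% and 28.6% of all genes, with medians of -0.041 and -0.0027. The share of members lower in WT senescence was thus above that of all genes, while the other shares were below it. These counts follow the scaling. When raw library totals replaced TMM, the median of all genes moved to 0.19 in WT and 0.15 in KO, and the counts became 20 higher and 13 lower in WT, and 33 higher and 7 lower in KO. Measured against the median of all genes, the nuclear median lay 0.14 lower in WT and 0.038 to 0.039 lower in KO under both scalings. Members are short genes, with a median exon length of 1631 bases for the nuclear ones against 3943 over all genes tested, and with an offset for exon length the counts were 4 higher and 53 lower in WT, and 8 and 37 in KO. The KO counts also moved when 1 library was left out, to 20 higher and 10 lower without KO senescent 1, and to 12 and 23 without KO senescent 3. Over complex V alone, 12 of 17 genes fell and 1 rose in WT, and 9 fell and 0 rose in KO, with medians of -0.31 and -0.19. With raw totals these became 7 and 1 in WT, and 5 and 2 in KO, with medians of -0.14 and -0.039. Leaving out single libraries gave 11 to 12 lower in WT and 7 to 11 in KO.

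The catalytic head of ATP synthase holds the alpha and beta subunits, and Atp5a1 and Atp5b encode them. Atp5a1 measured 516, 509.8 and 565 CPM in WT control, 354, 359 and 359 in WT senescent, 535, 479 and 494 in KO control and 347, 339.8 and 346 in KO senescent libraries. Control and senescent libraries did not overlap in either genotype. Atp5a1 fell in WT (log2 fold change -0.57 ± 0.052 (SE), adjusted p = 7.51e-09) and was the member of complex V that fell most in KO (log2 fold change -0.55 ± 0.052 (SE), adjusted p = 1.31e-08). Atp5b, named here after its values were seen as the nuclear member with the highest level per length, measured 896, 833 and 925 CPM in WT control, 638, 642 and 639 in WT senescent, 862, 815 and 802 in KO control and 644, 649 and 697 in KO senescent libraries. It also fell in both genotypes without overlap (log2 fold change -0.47 ± 0.051 (SE), adjusted p = 1.02e-07 in WT, and -0.32 ± 0.051 (SE), adjusted p = 1.96e-05 in KO).

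The c ring, which turns as protons pass, is made of one protein that comes from 3 genes, Atp5g1, Atp5g2 and Atp5g3. Atp5g2 measured 64.4, 60.9 and 66.5 CPM in WT control, 43.1, 42.4 and 41.6 in WT senescent, 61.5, 58.7 and 53.6 in KO control and 38.3, 42.1 and 39.1 in KO senescent libraries, every senescent library below every control. It was the nuclear member with the lowest WT value (log2 fold change -0.59 ± 0.062 (SE), adjusted p = 5.61e-08), and fell by a like amount in KO (log2 fold change -0.54 ± 0.063 (SE), adjusted p = 2.12e-07). Atp5g1 fell in WT (log2 fold change -0.46 ± 0.059 (SE), adjusted p = 7.69e-07) and in KO (log2 fold change -0.31 ± 0.058 (SE), adjusted p = 0.000118). Atp5g3 fell likewise (log2 fold change -0.58 ± 0.078 (SE), adjusted p = 4.45e-06 in WT, and -0.35 ± 0.077 (SE), adjusted p = 0.000823 in KO). The make-up of the trio changed little in WT, where the shares of all 3 genes overlapped. In KO the share of Atp5g2 per kb was 36.1% ± 0.852 in control and 33% ± 1.99 in senescent cells (SD, n = 3). These KO libraries did not overlap, while those for the shares of Atp5g1 and Atp5g3 did. On the CPM per kb scale, Atp5g3 gave 54.2% ± 0.721 of the 3 genes in WT control, 54.0% ± 1.19 in WT senescent, 54.2% ± 1.12 in KO control and 56.5% ± 2.48 in KO senescent cells (SD, n = 3). Of the windows of 100 bases along Atp5g2, 34.7% also occur in other genes, so part of its reads may be uncounted or shared. Atp5s was the only complex V gene that rose in WT, at 4.34, 5.61 and 6.18 CPM in control and 7.44, 9.05 and 8.98 in senescent libraries (log2 fold change 0.66 ± 0.15 (SE), adjusted p = 0.00101). Its KO groups overlapped in range, at 5.68, 5.55 and 6.86 and 8.25, 7.58 and 6.28 CPM, and the change did not pass (0.29 ± 0.15 (SE), adjusted p = 0.113). None of the 17 genes passed the test of a difference between the 2 senescence responses, where 9.24% of all genes passed as higher in KO and 11.7% as lower.

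**Figure D2:**
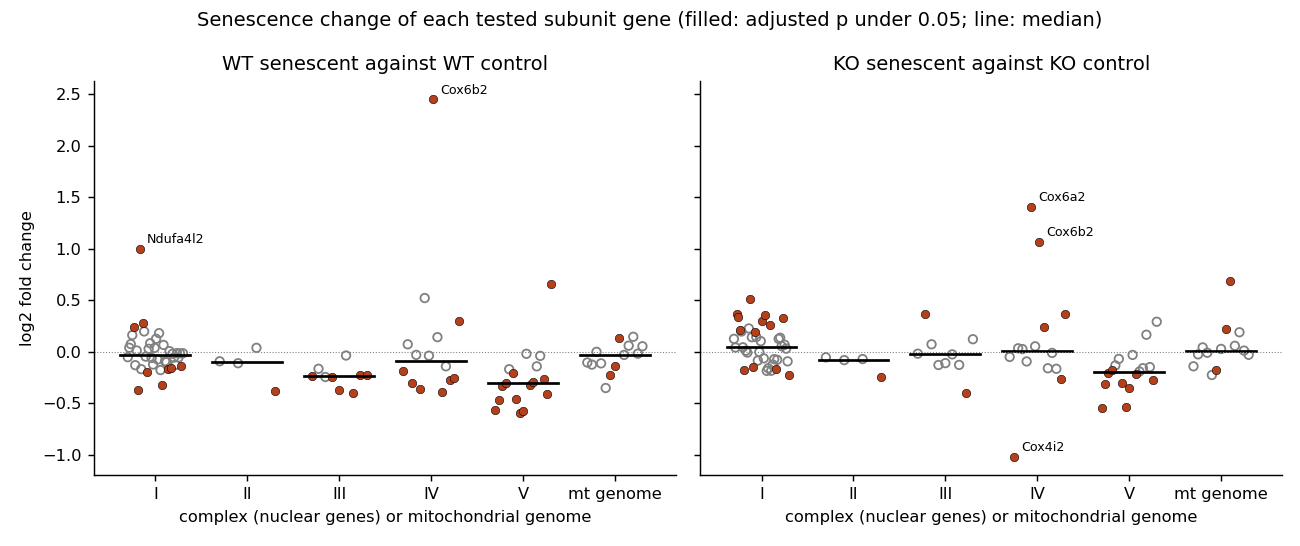
Log2 fold change in senescence (y axis) of each tested member, for WT on the left and KO on the right, in columns for complexes I to V (nuclear genes) and the mitochondrial genome. Filled points have an adjusted p under 0.05 and black lines are medians, which for complex V lie at -0.31 in WT and -0.19 in KO.

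In complex I, the largest complex, genes changed in both directions, and except for Ndufa4l2, described further on, by a log2 fold change of at most 0.51 in size. Of its 38 nuclear genes, 3 were higher and 6 lower in WT senescence, and 9 were higher and 4 lower in KO, with medians of -0.034 and 0.048. With raw totals the WT counts turned to 14 higher and 1 lower, and the KO counts to 20 and 0. Ndufa4, which as noted belongs to complex IV by its protein, measured 78.0, 80.4 and 85.2 CPM in WT control, 65.2, 63.5 and 59.1 in WT senescent, 79.3, 68.6 and 70.6 in KO control and 63.1, 59.8 and 70.2 in KO senescent libraries. It was the lowest of this group in WT (log2 fold change -0.37 ± 0.067 (SE), adjusted p = 7.12e-05) and also fell in KO (log2 fold change -0.18 ± 0.067 (SE), adjusted p = 0.0298), although its KO groups overlapped and the KO change did not pass under raw totals (adjusted p = 0.778). Ndufa7, an accessory subunit, measured 21.4, 27.7 and 26.5 CPM in WT control, 28.8, 28.9 and 28.7 in WT senescent, 27.3, 22.6 and 23.0 in KO control and 31.5, 35.1 and 36.9 in KO senescent libraries. Its KO senescent libraries were above all others. It was the highest of the group in KO senescence (log2 fold change 0.51 ± 0.092 (SE), adjusted p = 7.49e-05), while the WT change did not pass (0.20 ± 0.093 (SE), adjusted p = 0.0787) and neither did the difference of the responses (0.31 ± 0.13 (SE), adjusted p = 0.0996). Ndufv3, whose protein sits in the NADH-oxidizing arm, was the lowest in KO (log2 fold change -0.23 ± 0.072 (SE), adjusted p = 0.00972, and adjusted p = 0.38 under raw totals).

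Complex II is the only complex without mitochondrially encoded parts. Sdha, the flavoprotein that oxidizes succinate, measured 242, 242 and 266 CPM in WT control, 226, 239.7 and 237 in WT senescent, 234, 229.9 and 227 in KO control and 219, 224 and 222 in KO senescent libraries, and its change did not pass in WT (-0.094 ± 0.05 (SE), adjusted p = 0.117) or in KO (-0.055 ± 0.05 (SE), adjusted p = 0.36). Sdhb, the iron-sulfur subunit, had values of -0.11 and -0.082 with adjusted p = 0.132 and 0.27. Sdhc, a membrane anchor, had values of 0.037 and -0.072 with adjusted p = 0.58 and 0.263. Sdhd, the other membrane anchor, stood apart from these 3. It measured 78.7, 73.7 and 79.3 CPM in WT control, 58.8, 60.2 and 58.2 in WT senescent, 78.7, 74.99 and 68.8 in KO control and 62.4, 61.7 and 63.3 in KO senescent libraries, each senescent library below each control. It fell in WT (log2 fold change -0.39 ± 0.056 (SE), adjusted p = 4.89e-06) and in KO (log2 fold change -0.25 ± 0.056 (SE), adjusted p = 0.00068), the latter not passing under raw totals (adjusted p = 0.135).

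In complex III, 6 of 9 genes were lower and 0 higher in WT senescence (median -0.24), whereas in KO 1 was lower and 1 higher (median -0.026). With raw totals the WT counts were 2 lower and 1 higher, and the KO counts 1 and 3. Uqcrfs1, the Rieske iron-sulfur protein, measured 45.9, 44.5 and 44.4 CPM in WT control, 31.9, 34.3 and 35.9 in WT senescent, 45.6, 39.5 and 38.2 in KO control and 36.1, 37.3 and 39.3 in KO senescent libraries. It was the lowest of the group in WT (log2 fold change -0.40 ± 0.071 (SE), adjusted p = 5.53e-05), and its KO value did not pass (-0.13 ± 0.071 (SE), adjusted p = 0.127). Cyc1, the cytochrome c1 subunit, measured 62.8, 55.6 and 65.6 CPM in WT control and 52.5, 51.8 and 52.0 in WT senescent libraries (log2 fold change -0.24 ± 0.077 (SE), adjusted p = 0.0133, and adjusted p = 0.473 under raw totals), and its KO value was -0.02 ± 0.077 (SE), adjusted p = 0.847. Uqcrh, a hinge protein near cytochrome c1, measured 42.6, 43.0 and 43.7 CPM in WT control, 35.8, 38.3 and 36.0 in WT senescent, 46.9, 45.2 and 41.4 in KO control and 30.3, 35.1 and 35.9 in KO senescent libraries. It was the 1 gene of the complex that fell in both genotypes (log2 fold change -0.23 ± 0.07 (SE), adjusted p = 0.00758 in WT, and -0.40 ± 0.07 (SE), adjusted p = 4.97e-05 in KO), with the lowest KO value of the 9. Uqcrc2 had the highest WT value of the group, -0.037 ± 0.054 (SE), adjusted p = 0.585.

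Complex III held 3 of the 5 nuclear members whose senescence response was higher in KO than in WT. Over all nuclear members, 5 passed as higher (6.10%) and 3 as lower (3.66%), each below the share of all genes given above. The median difference of the responses was 0.12 log2 over the nuclear members and -0.026 over all genes. The difference uses all 4 groups, so it shares its libraries with each senescence response. Uqcr10, a small subunit of the complex, measured 20.7, 21.5 and 21.2 CPM in WT control, 18.3, 19.8 and 18.4 in WT senescent, 18.7, 16.3 and 15.7 in KO control and 18.0, 23.7 and 23.3 in KO senescent libraries. WT senescent libraries lay below the WT controls, and 2 of 3 KO senescent libraries lay above all KO controls. Its response was higher in KO by 0.53 ± 0.14 (SE), adjusted p = 0.00937, and the gene rose in KO (log2 fold change 0.36 ± 0.10 (SE), adjusted p = 0.00333) without passing in WT (-0.17 ± 0.10 (SE), adjusted p = 0.156). Uqcrq, another subunit of the complex, measured 64.4, 62.7 and 67.0 CPM in WT control, 55.7, 53.0 and 57.7 in WT senescent, 60.5, 55.5 and 55.3 in KO control and 59.0, 63.6 and 63.6 in KO senescent libraries. The difference of its responses was 0.34 ± 0.082 (SE), adjusted p = 0.00497. Uqcrc1, a core subunit, differed by 0.26 ± 0.085 (SE), adjusted p = 0.0352. Uqcrq and Uqcrc1 are named after their values were seen, as they passed. The difference for Uqcrc1 did not pass in 9 of 20 alternatives, with adjusted p of up to 0.114 without the library KO control 3. The differences for Uqcr10 and Uqcrq passed in all 20 alternatives. The count of 5 itself ranged from 2 without KO control 2 to 12 without KO control 1, and was 3 without KO control 3, KO senescent 3, WT control 3 or WT senescent 1 and 8 without KO senescent 1.

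**Figure D3:**
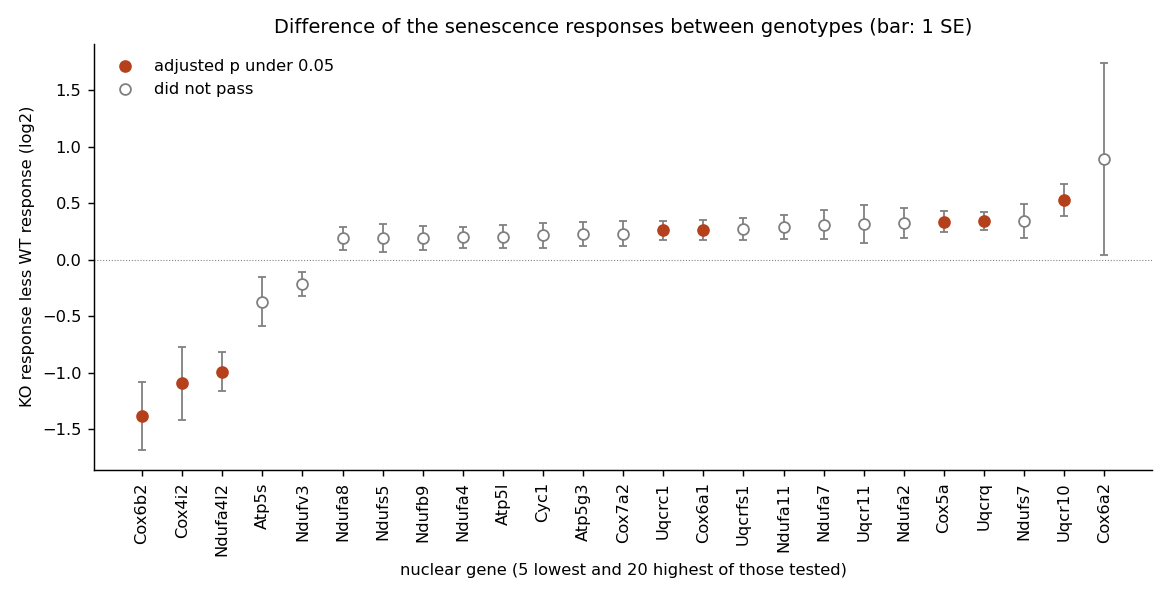
Senescence response in KO less that in WT (log2, y axis) for the 5 nuclear members with the lowest and the 20 with the highest values, with bars of 1 SE. Filled points have an adjusted p under 0.05, and they run from -1.38 for Cox6b2 to 0.53 for Uqcr10.

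Complex IV held the other 2 members with a higher response in KO. Cox5a, an accessory subunit named after its values were seen, measured 46.4, 42.4 and 45.6 CPM in WT control, 35.5, 36.3 and 37.0 in WT senescent, 43.6, 36.8 and 39.8 in KO control and 39.5, 40.1 and 43.2 in KO senescent libraries. Only its WT groups were separated (log2 fold change -0.31 ± 0.068 (SE), adjusted p = 0.000655), and its difference of responses was 0.34 ± 0.10 (SE), adjusted p = 0.0157, which did not pass without the library KO control 2 (adjusted p = 0.0629). Cox6a1, the common form of subunit VIa, fell in WT (log2 fold change -0.36 ± 0.061 (SE), adjusted p = 3.68e-05) and differed by 0.26 ± 0.086 (SE), adjusted p = 0.0341, which did not pass in 9 of 20 alternatives (adjusted p up to 0.111 without the library WT senescent 2). Over the 14 complex IV genes tested, 2 were higher and 6 lower in WT, and 4 higher and 2 lower in KO, with medians of -0.091 and 0.0065. With raw totals the counts were 3 and 2 in WT, and 8 and 1 in KO. Cox8a, the common form of subunit VIII, rose in both genotypes. It measured 56.5, 56.4 and 59.1 CPM in WT control, 73.0, 72.3 and 65.3 in WT senescent, 59.8, 54.0 and 59.2 in KO control and 68.3, 74.97 and 79.97 in KO senescent libraries, with every senescent library above every control (log2 fold change 0.29 ± 0.065 (SE), adjusted p = 0.000604 in WT, and 0.37 ± 0.064 (SE), adjusted p = 4.67e-05 in KO). Cox7a2, the common form of subunit VIIa, fell in WT (log2 fold change -0.39 ± 0.079 (SE), adjusted p = 0.000245), as did Cox7b (log2 fold change -0.27 ± 0.074 (SE), adjusted p = 0.00366), and neither passed in KO (adjusted p = 0.0879 and 0.0606). Under raw totals the WT changes of Cox7b and Cox5a did not pass either (adjusted p = 0.247 and 0.0902).

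The members with folds of 2 or more in senescence were isoforms with restricted use. In WT senescence 2 members passed with an absolute log2 fold change over 1, in KO senescence 3, and in the difference of the responses 2, where 17.4%, 18.8% and 3.66% of all genes did so. Cox6b2, a form of subunit VIb known from testis (chromosome 7, positions 4751792 to 4753094, minus strand, GRCm38), measured 1.53, 1.34 and 1.13 CPM in WT control, 6.73, 6.63 and 8.71 in WT senescent, 2.12, 1.51 and 1.42 in KO control and 3.01, 3.97 and 3.61 in KO senescent libraries. All senescent libraries were above all controls, and WT senescent libraries were above KO senescent ones. It rose in WT (log2 fold change 2.45 ± 0.21 (SE), adjusted p = 2.87e-09) and in KO (log2 fold change 1.07 ± 0.21 (SE), adjusted p = 0.000179), and the KO response was the lower one, the difference being -1.38 ± 0.30 (SE), adjusted p = 0.00254. Its partner Cox6b1, used in most tissues, measured 52.4, 53.3 and 56.5 CPM in WT control, 55.0, 50.4 and 52.6 in WT senescent, 58.0, 51.2 and 50.8 in KO control and 48.8, 56.2 and 60.7 in KO senescent libraries, with no passing change (-0.039 ± 0.073 (SE), adjusted p = 0.679 in WT, and 0.052 ± 0.073 (SE), adjusted p = 0.569 in KO). On the CPM per kb scale Cox6b2 made up 2.69% ± 0.487 of the pair in WT control and 13.5% ± 1.89 in WT senescent cells. In KO it made up 3.38% ± 0.479 in control and 6.67% ± 0.572 in senescent cells (SD, n = 3).

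Cox4i2 is the form of subunit IV known from lung and from cells kept at low oxygen (chromosome 2, positions 152754173 to 152765037, plus strand). It measured 3.58, 2.69 and 2.26 CPM in WT control, 2.41, 2.99 and 3.59 in WT senescent, 2.52, 2.96 and 2.92 in KO control and 1.58, 1.31 and 1.25 in KO senescent libraries. The KO senescent libraries were below all 9 others, which overlapped. Cox4i2 fell in KO (log2 fold change -1.02 ± 0.23 (SE), adjusted p = 0.000829) while the WT change did not pass (0.072 ± 0.22 (SE), adjusted p = 0.805), and the responses differed by -1.09 ± 0.32 (SE), adjusted p = 0.0191. The difference did not pass without the library WT senescent 3 (adjusted p = 0.0641). Cox4i1, the common form, measured 151, 159 and 165 CPM in WT control, 133, 138 and 145 in WT senescent, 172, 156 and 151 in KO control and 141, 151 and 169.7 in KO senescent libraries. It fell in WT (log2 fold change -0.19 ± 0.065 (SE), adjusted p = 0.0169), which did not pass under raw totals (adjusted p = 0.786), and its KO value was -0.051 ± 0.065 (SE), adjusted p = 0.524. As a share of both genes per kb, Cox4i2 was 1.83% ± 0.508 in WT control, 2.17% ± 0.326 in WT senescent, 1.79% ± 0.263 in KO control and 0.929% ± 0.197 in KO senescent cells.

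Ndufa4l2, a relative of Ndufa4 that is known to be induced at low oxygen (chromosome 10, positions 127514967 to 127517154, plus strand), measured 20.9, 28.8 and 19.5 CPM in WT control, 44.8, 47.3 and 46.5 in WT senescent, 46.0, 58.1 and 53.6 in KO control and 51.9, 57.6 and 49.3 in KO senescent libraries. WT control libraries were below all 9 others. It rose in WT senescence (log2 fold change 1.00 ± 0.13 (SE), adjusted p = 1.59e-05), showed no passing change in KO senescence (0.0092 ± 0.12 (SE), adjusted p = 0.955), and the responses differed by -0.99 ± 0.17 (SE), adjusted p = 0.00169. The gene was already higher in KO than in WT among controls (log2 fold change 1.19 ± 0.13 (SE), adjusted p = 3.93e-05). The WT response and the control difference share the WT control libraries. In WT the log2 fold change sat at the limit of 1, and fewer than 2 members were past it without WT control 1, WT control 3, WT senescent 2, WT senescent 3, KO control 1, KO control 2, KO control 3, KO senescent 2 or KO senescent 3, where the count was 1, while it was 3 without KO senescent 1. For the difference of the responses the count of 2 was 1 without WT control 3 or WT senescent 3. As a share of Ndufa4 and Ndufa4l2 per kb it was 13.9% ± 2.75 in WT control and 29.6% ± 1.42 in WT senescent cells, and 29.2% ± 3.97 and 31.9% ± 3.43 in the KO groups.

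**Figure D4:**
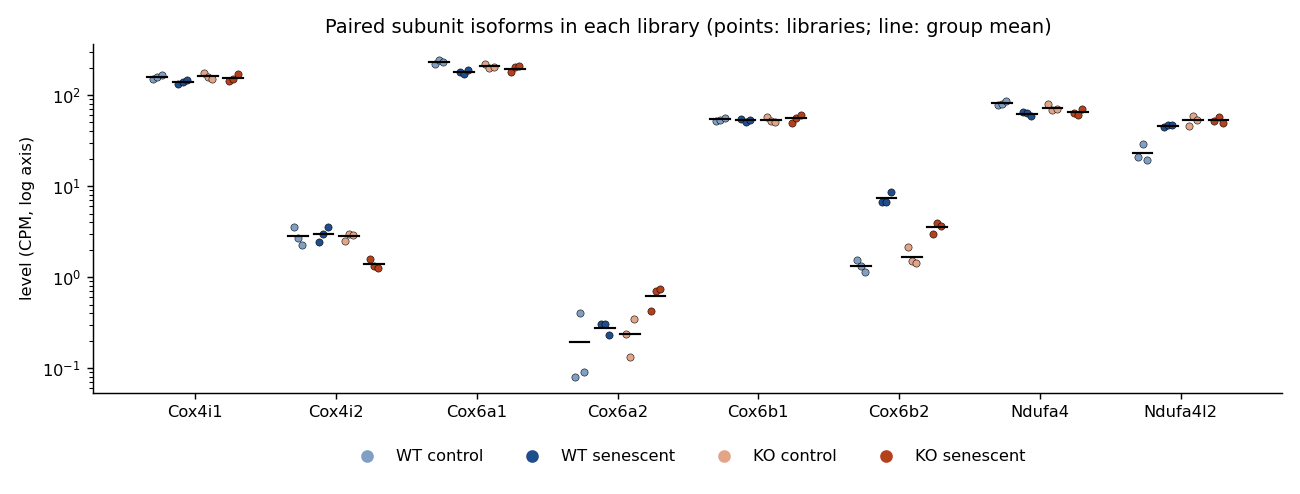
Level (CPM, log y axis) of 4 pairs of common and restricted subunit isoforms in each of the 12 libraries, with lines at group means. Cox6b2 is highest in WT senescent libraries (7.36 CPM on average), Cox4i2 is lowest in KO senescent ones (1.38) and Ndufa4l2 is lowest in WT controls (23.1).

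The forms of subunits VIa, VIIa and VIII typical of heart and skeletal muscle were near the limit of detection, where 3 counts in a library correspond to 0.0945 to 0.125 CPM of the raw total. Cox6a2 measured 0.0804, 0.407 and 0.0902 CPM in WT control, 0.306, 0.303 and 0.231 in WT senescent, 0.240, 0.135 and 0.343 in KO control and 0.424, 0.709 and 0.742 in KO senescent libraries. It passed as higher in KO senescence (log2 fold change 1.41 ± 0.55 (SE), adjusted p = 0.0328), a call that was lost in 6 of 21 alternatives, with adjusted p of up to 0.146 without the library KO control 2. The count of 3 KO members past the limit of 1 fell to 0 without KO control 2 or KO senescent 2 and to 1 without KO control 3 or KO senescent 3. Cox7a1 ranged from 0.101 to 0.522 CPM and Cox8b from 0 to 0.0451 CPM. Cox7b2 and Cox8c, forms known from testis, ranged from 0 to 0.0673 CPM and stood at 0 in all 12 libraries, respectively, which allows a level of up to 0.125 CPM. Markers of skeletal muscle were low as well, with sums of 46.7 to 59.5 CPM in WT control, 16.7 to 17.6 in WT senescent, 24.1 to 34.0 in KO control and 19.0 to 23.8 in KO senescent libraries. Among the 6 of 9 muscle markers tested, 1 rose and 1 fell in WT, and 4 rose and 1 fell in KO. Their part in the Cox6a2 change was not tested.

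The 13 genes of the mitochondrial genome fell into 2 sets by level. On the CPM per kb scale mt-Co1 (mean 2546 over the 12 libraries), mt-Cytb (1542), mt-Nd1 (1203), mt-Nd5 (720.2) and mt-Nd2 (691) were each above the highest nuclear member, Atp5b (393), also in each group. mt-Nd4 (413) and mt-Nd6 (400.1) lay near Atp5b, and Atp5b was the higher in both control groups, at 462 against 412 and 373 in WT control and at 431 against 398 and 425 in KO control. The other 6, mt-Nd3, mt-Nd4l, mt-Co2, mt-Co3, mt-Atp6 and mt-Atp8, were at 0.442 to 7.09 CPM. The first set carries nearly all of the summed level, which was 9896, 9666 and 10055 CPM in WT control, 9663, 9661 and 9336 in WT senescent, 9871, 9375 and 9559 in KO control and 9829, 9527 and 9622 in KO senescent libraries. The KO groups overlapped, and the WT groups were just separated, the highest senescent library being 9663 CPM and the lowest control 9666. As a share of the raw library total the order turned. It was 0.931% to 0.957% in WT control and 0.995% to 1.04% in WT senescent, and 0.878% to 0.927% in KO control and 0.991% to 1.02% in KO senescent libraries, higher in senescence without overlap in both genotypes. Set against the summed nuclear members, mitochondrial genes stood at a ratio of 1.70 to 1.77 in WT control, 1.92 to 2.00 in WT senescent, 1.70 to 1.81 in KO control and 1.84 to 2.07 in KO senescent libraries. The ratio does not depend on the scaling, and senescent libraries were above control libraries of both genotypes.

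Changes of the abundant mitochondrial genes were small. mt-Cytb, the cytochrome b of complex III, measured 1931, 1904 and 1967 CPM in WT control, 1662, 1649 and 1632 in WT senescent, 1920, 1772 and 1841 in KO control and 1628, 1625 and 1641 in KO senescent libraries. Every senescent library was below every control of its genotype, and the gene fell in WT (log2 fold change -0.23 ± 0.045 (SE), adjusted p = 0.000149) and in KO (log2 fold change -0.18 ± 0.045 (SE), adjusted p = 0.00189). mt-Nd2, a membrane subunit of complex I, measured 686, 676 and 713 CPM in WT control, 765, 762 and 748 in WT senescent, 664, 651 and 649 in KO control and 792, 745 and 750.0 in KO senescent libraries, with senescent libraries above controls (log2 fold change 0.13 ± 0.046 (SE), adjusted p = 0.0172 in WT, and 0.22 ± 0.046 (SE), adjusted p = 0.000311 in KO). mt-Nd1, another membrane subunit, measured 1214, 1136 and 1238 CPM in WT control, 1115, 1106 and 1047 in WT senescent, 1236, 1102 and 1109 in KO control and 1154, 1151 and 1206 in KO senescent libraries. It was lower in WT senescence (log2 fold change -0.13 ± 0.053 (SE), adjusted p = 0.0367) and did not pass in KO (0.027 ± 0.053 (SE), adjusted p = 0.694). Several of these calls depended on the scaling or on length. With raw totals mt-Cytb no longer passed in WT or KO (adjusted p = 0.213 and 0.646), mt-Nd1 turned to 0.035, and with an offset for exon length mt-Nd2 in WT turned to -0.029. In all, 1 mitochondrial gene was higher and 2 were lower in WT, and 2 were higher and 1 lower in KO. The WT gene that was higher, mt-Nd2, did not pass without WT control 1, WT control 2, WT senescent 1 or WT senescent 2, and 1 rather than 2 were lower without WT control 1, WT control 3, WT senescent 1, WT senescent 2 or WT senescent 3. mt-Nd4, mt-Nd5, mt-Nd6 and mt-Co1 did not pass in any of the 5 comparisons, and mt-Co1 measured 3999, 3827 and 4051 CPM in WT control, 3976, 4073 and 3814 in WT senescent, 3950, 3778 and 3830 in KO control and 4035, 3956 and 3906 in KO senescent libraries.

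Most genes of the low set have near-identical copies on chromosome 1. Of the windows of 100 bases in mt-Nd3, mt-Nd4l, mt-Co2, mt-Co3 and mt-Atp6, 97.6%, 98.5%, 99.5%, 99.9% and 99.5% also occur in the pseudogenes Gm28438, Gm10222, Gm28661, Gm28437 and Gm10925, which lie between positions 24612407 and 24615565 of chromosome 1 (GRCm38). The genes mt-Nd3 and mt-Co3 span positions 9459 to 9806 and 8607 to 9390 of the mitochondrial genome. Reads of such stretches have 2 possible origins, and the levels of these genes are therefore uncertain. mt-Atp8 overlaps mt-Atp6 over 21.1% of its bases, and none of its windows occurs in another annotated transcript. Sequence between annotated genes was not searched. mt-Atp8 lies between mt-Co2 and the main part of mt-Atp6, whose copies on chromosome 1 leave a gap between positions 24614651 and 24614885. Whether that gap holds a copy of mt-Atp8 was not tested. In the abundant set, 60.8% of the windows of mt-Nd4 and 30.8% of those of mt-Co1 are shared in the same way. Whether the copies account for the low levels was not tested. mt-Nd3 and Gm28438 differ at 1 base of the aligned transcripts, the third, and in 3 bases at the end that the copy lacks. Their first 80 bases (GENCODE M21, sense strand) follow, with that base in capitals.
mt-Nd3: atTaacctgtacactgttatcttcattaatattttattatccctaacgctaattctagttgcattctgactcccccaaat
Gm28438: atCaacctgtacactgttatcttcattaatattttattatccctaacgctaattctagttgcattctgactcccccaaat

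Genotype differences among the mitochondrial genes were in this low set. mt-Nd3 measured 0.482, 0.773 and 0.541 CPM in WT control, 0.442, 0.774 and 0.540 in WT senescent, 3.12, 4.34 and 5.49 in KO control and 6.90, 7.09 and 6.78 in KO senescent libraries, each KO library above each WT library. It was higher in KO among controls (log2 fold change 2.84 ± 0.27 (SE), adjusted p = 2.05e-07) and among senescent cells (log2 fold change 3.55 ± 0.26 (SE), adjusted p = 4.2e-09). Gm28438 went the other way, at 6.03, 5.25 and 7.35 CPM in WT control, 5.34, 5.25 and 5.44 in WT senescent, 0.200, 0.202 and 0.429 in KO control and 0.578, 0.142 and 0.337 in KO senescent libraries. The gene took 6.86% to 12.8% of the sum of the pair in WT and 92.3% to 98.0% in KO libraries. The sum itself was 6.51, 6.02 and 7.89 CPM in WT control, 5.78, 6.02 and 5.98 in WT senescent, 3.32, 4.54 and 5.92 in KO control and 7.48, 7.23 and 7.12 in KO senescent libraries. In the sum, KO libraries were below WT libraries among controls and above them among senescent cells.

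mt-Co3 showed the same pattern at a smaller size. It measured 2.73, 2.93 and 2.21 CPM in WT control, 2.38, 1.72 and 2.08 in WT senescent, 6.59, 5.45 and 6.91 in KO control and 5.24, 5.17 and 5.74 in KO senescent libraries, again with each KO library above each WT library (log2 fold change 1.26 ± 0.18 (SE), adjusted p = 4.74e-05 in controls, and 1.39 ± 0.18 (SE), adjusted p = 9.76e-06 in senescent cells). Its copy Gm28437 was at 4.43 to 6.77 CPM in WT and at 1.77 to 2.16 CPM in KO libraries. The sum of both was 8.56, 8.38 and 8.98 CPM in WT control and 8.75, 7.30 and 8.92 in KO control libraries, which overlapped. Among senescent libraries it was 7.68, 7.67 and 6.52 in WT and 7.02, 7.26 and 7.52 in KO, which overlapped too. mt-Nd4l measured 2.57, 2.81 and 2.80 CPM in WT control, 3.16, 3.16 and 2.70 in WT senescent, 3.24, 4.21 and 4.03 in KO control and 5.36, 4.36 and 3.41 in KO senescent libraries and passed in senescent cells (log2 fold change 0.53 ± 0.19 (SE), adjusted p = 0.0454), though not in 11 of 21 alternatives. Gm10222 was at 1.38 to 2.93 CPM in WT and at 0.424 to 0.886 CPM in KO libraries. mt-Co3 ends 71 bases before the base at which mt-Nd3 and its copy differ, and mt-Nd4l starts 416 bases after it. mt-Co2, mt-Atp6 and mt-Atp8 did not pass in either comparison of genotypes. Whether the division of reads between gene and copy is behind the genotype differences was not tested. mt-Nd3 also passed as higher in KO senescence (log2 fold change 0.68 ± 0.21 (SE), adjusted p = 0.00731), but not without the library KO control 1 (adjusted p = 0.054).

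**Figure D5:**
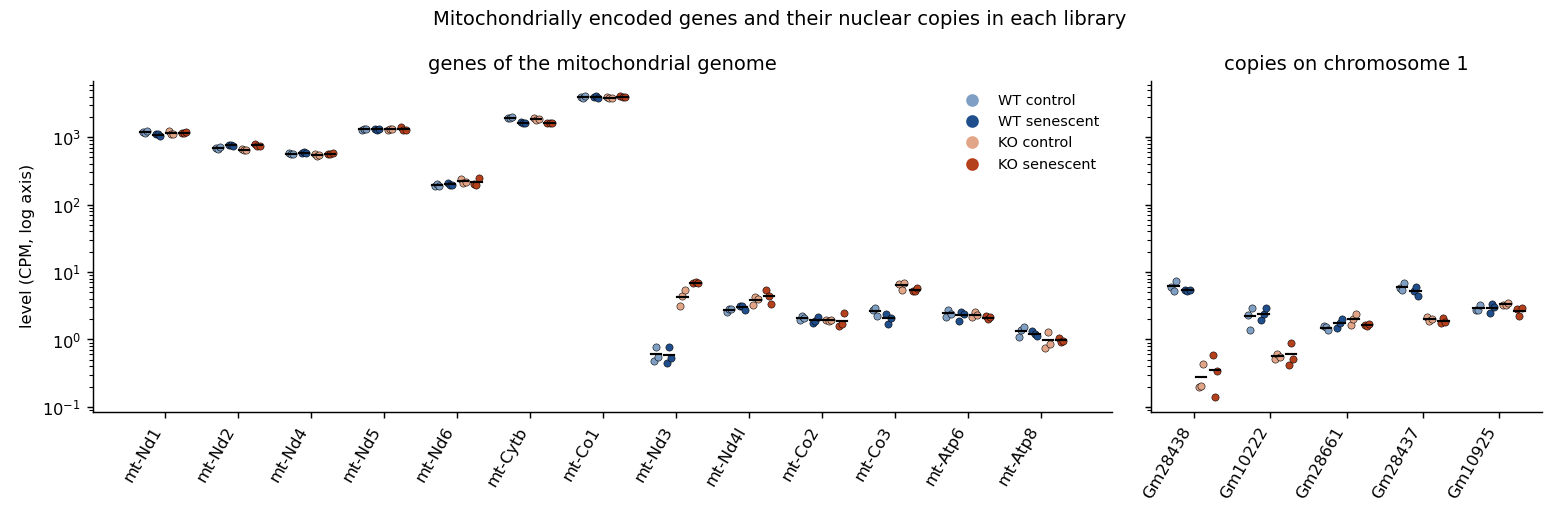
Level (CPM, log y axis) of the 13 mitochondrial genes (left) and of 5 near-identical copies on chromosome 1 (right) in each library, with lines at group means. The left-hand 7 genes lie between 186 and 4073 CPM and the other 6 below 7.1, and mt-Nd3 and mt-Co3 are higher in KO while Gm28438 and Gm28437 are lower.

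Among the nuclear members, genotype alone made little difference. In control cells 1 passed as higher in KO and 2 as lower (1.22% and 2.44%), beside 8.07% and 4.96% of all genes. In senescent cells 4 passed as higher and 2 as lower (4.88% and 2.44%), beside 11.9% and 11.8% of all genes. With the mitochondrial genes included, 3 members in controls and 4 in senescent cells also had an absolute log2 fold change over 1, beside 2.54% and 3.48% of all genes. The control gene that was higher was Ndufa4l2, and those that were lower were Uqcr10 (log2 fold change -0.32 ± 0.10 (SE), adjusted p = 0.0343) and Uqcrq (log2 fold change -0.18 ± 0.058 (SE), adjusted p = 0.0441). In senescent cells Cox6b2 (log2 fold change -1.06 ± 0.19 (SE), adjusted p = 0.000281) and Cox4i2 (log2 fold change -1.12 ± 0.23 (SE), adjusted p = 0.00121) were lower in KO. The 4 that were higher there were Ndufa7 (0.26 ± 0.09 (SE), adjusted p = 0.0409), Uqcrq (0.16 ± 0.058 (SE), adjusted p = 0.0446), Cox6c (0.20 ± 0.071 (SE), adjusted p = 0.0474) and Cox7a2l (0.20 ± 0.061 (SE), adjusted p = 0.0191), with Uqcrq and Cox6c named after their values were seen. All 4 lost the call in 5 to 10 of 21 alternatives, and the count of 4 fell to 0 when WT senescent 1, WT senescent 2, WT senescent 3, KO senescent 2 or KO senescent 3 was left out, while it was 9 without KO senescent 1 and 2 without KO control 2 or WT control 1. The 4 members past a log2 fold change of 1 in senescent cells became 2 without WT senescent 3. The count of lower genes in controls was 8 without KO control 1, and 0 without KO control 2, KO control 3, WT control 1 or WT control 3, and 1 without KO senescent 2, WT senescent 1, WT senescent 2 or WT senescent 3. The comparisons of KO with WT share their libraries with the senescence responses given above, so their values are not independent of them. The lowest and highest log2 fold changes of each complex complete the picture. In controls they ran from -0.23 for Ndufs7 to 1.19 for Ndufa4l2 in complex I, from -0.12 for Sdha to 0.077 for Sdhc in complex II and from -0.32 for Uqcr10 to 0.046 for Uqcrh in complex III. They ran from -0.19 for Cox7a2 to 0.33 for Cox6b2 in complex IV and from -0.14 for Atp5g2 to 0.16 for Atp5s in complex V. In senescent cells the highest of complex I was Ndufa7, and the ends were Sdha (-0.078) and Sdhd (0.08) in complex II, and Uqcrh (-0.12) and Uqcr10 (0.21) in complex III. They were Cox4i2 and Cox6a2 (1.15, adjusted p = 0.122) in complex IV, and Atp5s (-0.21) and Atp5l (0.18) in complex V. For the difference of the senescence responses they were Ndufa4l2 and Ndufs7 (0.34) in complex I, Sdhc (-0.11) and Sdhd (0.14) in complex II, Uqcrh (-0.17) and Uqcr10 in complex III, Cox6b2 and Cox6a2 (0.89, adjusted p = 0.506) in complex IV, and Atp5s (-0.37) and Atp5g3 (0.23) in complex V.

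Genes that build, supply and regulate the complexes were tested in the same fit. Their counts were taken with TMM only, and the directions of such counts may follow the scaling. Raw totals and the exon length offset, which moved the counts of nuclear members given above, were not applied to these lists. Of 78 mitochondrial ribosomal proteins tested, which translate the 13 mitochondrial messages, 5 were higher and 29 lower in WT senescence (median -0.14), and 13 were higher and 13 lower in KO (median 0.0066). Their difference of responses passed as higher in KO for 10 and as lower for 0, with a median of 0.13 against -0.026 over all genes. Of the 53 assembly factors tested, which join subunits without staying in the complex, 15 were higher and 13 lower in WT, and 23 and 9 in KO. Surf1, an assembly factor of complex IV, measured 16.1, 17.5 and 15.4 CPM in WT control and 37.7, 37.98 and 34.2 in WT senescent libraries (log2 fold change 1.17 ± 0.081 (SE), adjusted p = 8.15e-11), the highest of the list in WT. Cmc2, another complex IV factor, was the lowest, at 16.6, 14.3 and 16.0 and 6.80, 5.72 and 7.79 CPM (-1.21 ± 0.12 (SE), adjusted p = 1.97e-08). These list genes and those below are named for their values.

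Under TMM scaling, enzymes and carriers that feed the chain were lower more often than higher in WT senescence. Of 18 tricarboxylic acid cycle enzymes 1 was higher and 10 were lower in WT, and 4 and 7 in KO. Idh2, the mitochondrial NADP-dependent isocitrate dehydrogenase, measured 73.6, 70.7 and 74.7 CPM in WT control, 26.1, 31.2 and 28.8 in WT senescent, 81.2, 81.1 and 82.7 in KO control and 20.4, 19.8 and 18.3 in KO senescent libraries. It fell in both genotypes, and the KO response was lower by a further difference of -0.72 ± 0.093 (SE), adjusted p = 2.5e-05. Of 10 genes tested from a list of inner-membrane carriers and uncoupling proteins, which also holds the outer-membrane porins Vdac1, Vdac2 and Vdac3, 0 were higher and 8 lower in WT, and 1 and 5 in KO. Ucp2, an uncoupling-family carrier, stood apart by genotype, at 11.5, 13.6 and 11.7 CPM in WT control and 64.4, 65.6 and 61.2 in KO control libraries (2.38 ± 0.083 (SE), adjusted p = 1.03e-13). Of 19 electron carriers and entry enzymes 3 were higher and 6 lower in each genotype. Cycs, the cytochrome c that links complexes III and IV, measured 113, 104 and 118 CPM in WT control, 70.8, 68.4 and 69.9 in WT senescent, 99.8, 89.9 and 90.6 in KO control and 82.0, 82.5 and 86.0 in KO senescent libraries. All senescent libraries were below all controls, and its responses differed by 0.52 ± 0.079 (SE), adjusted p = 0.000135, the KO value being the higher, as for the complex III genes above.

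Of 13 regulators of mitochondrial biogenesis tested, 3 were higher and 5 lower in WT, and 2 and 5 in KO. Ppargc1a, which encodes the coactivator PGC-1 alpha, measured 2.09, 2.64 and 1.44 CPM in WT control, 4.62, 5.55 and 3.86 in WT senescent, 1.28, 1.68 and 1.93 in KO control and 1.77, 1.77 and 1.55 in KO senescent libraries. The WT senescent libraries were above all others. It rose in WT (1.18 ± 0.23 (SE), adjusted p = 0.000184) while the KO change did not pass (0.059 ± 0.25 (SE), adjusted p = 0.858), and the responses differed by -1.12 ± 0.34 (SE), adjusted p = 0.0241. Of the factors whose cores were searched for in the promoters, Nrf1 fell in both genotypes (-0.49 in WT and -0.54 in KO), as did Yy1 (-0.35 and -0.22) and Gabpb2, a GABP subunit (-1.01 and -1.14). Gabpa, the DNA-binding GABP subunit, did not pass in WT (0.085 ± 0.055 (SE), adjusted p = 0.196) and rose slightly in KO (0.17 ± 0.054 (SE), adjusted p = 0.0105). Of 25 genes for replication and transcription of mitochondrial DNA 2 were higher and 7 lower in WT, and 4 and 3 in KO. Polg, the mitochondrial DNA polymerase, fell in WT (-0.85 ± 0.059 (SE), adjusted p = 9.56e-11) and in KO (-0.82 ± 0.06 (SE), adjusted p = 1.63e-10). No count in these lists is shown to be particular to them, and the shares of all genes given above apply.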

How the data were processed

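The authors deposited 2 tables of raw counts, one per genotype. Per the labels and the study's methods, poly(A) RNA was sequenced as paired reads, demultiplexed with bcl2fastq 2.17, trimmed with Trimmomatic 0.36 and aligned with STAR 2.5.2b to GRCm38, and uniquely mapped reads in exons were counted per gene with featureCounts. Unique mapping leaves out reads that match a gene and its copy equally, so near-identical genes can read low. Strand use and the annotation release are not given in the sources used here. Library totals were 23923030 to 31736083 counts, and 0 columns were left unused.

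The tables were joined on gene identifiers, filtered with filterByExpr and scaled by TMM in edgeR 4.0.16 (R 4.3.3), in scripts that were tested on simulated data. A single quasi-likelihood model over the 12 libraries (robust, 4 groups) gave the contrasts, with Benjamini-Hochberg adjustment over 17416 genes. DESeq2 1.42.0, other scalings, filters, sample sets, blocks and each library left out were the alternatives. CPM per kb used the median length of principal transcripts. Sums over members carry no test. Shared sequence was counted in windows of 100 bases of GENCODE M21 transcripts, and promoters came from RefSeq (GRCm38.p6).

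Members and lists were chosen with earlier results of these data known. Named members were the mitochondrial genes, a panel of isoform pairs, complex II and c-ring genes, those past an absolute log2 fold change of 1 at an adjusted p under 0.05, and the highest and lowest of each complex in each comparison. Atp5b and other members outside this rule are marked as such, and 1 gene that the rule names is not reported here. No library pair was identical (0 pairs), and correlations between replicates were 0.984 to 0.992.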

Additional observations from a re-analysis of the deposited data

Results flagged for a closer look

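For 8 of the 95 members tested, the senescence response differed between KO and WT cells by the test of the difference itself (edgeR quasi-likelihood F-test, 3 libraries per group). These are 5.26% of members as higher and 3.16% as lower in KO, beside 9.24% and 11.7% of all genes tested. The response was lower in KO for Ndufa4l2 (-0.99 ± 0.17 (SE), adjusted p = 0.00169), Cox6b2 (-1.38 ± 0.30 (SE), adjusted p = 0.00254) and Cox4i2 (-1.09 ± 0.32 (SE), adjusted p = 0.0191). Ndufa4l2 rose in 3 of 3 WT senescent libraries above all WT controls, Cox6b2 rose in 3 of 3 libraries of both genotypes, and Cox4i2 was lower in 3 of 3 KO senescent libraries than in all KO controls. The response was higher in KO for Uqcr10 (0.53 ± 0.14 (SE), adjusted p = 0.00937), Uqcrq (0.34 ± 0.082 (SE), adjusted p = 0.00497), Uqcrc1 (0.26 ± 0.085 (SE), adjusted p = 0.0352), Cox5a (0.34 ± 0.10 (SE), adjusted p = 0.0157) and Cox6a1 (0.26 ± 0.086 (SE), adjusted p = 0.0341). In these 5 genes 3 of 3 WT senescent libraries were below all WT controls, as was so for 29.7% of all genes. The 5 were picked by a difference that uses the same WT libraries. Senescent libraries were above all controls for 33.4% of all genes in WT and 30.8% in KO, and below all controls for 30.8% in KO. No group held enough libraries for a test of single outlying values.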

How the results depend on the processing

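The scaling and the exon length offset moved the senescence counts most. With total counts in place of TMM, the nuclear members were 20 higher and 13 lower in WT and 33 and 7 in KO, and the mitochondrial ones 5 and 0 in WT and 6 and 0 in KO. The genotype comparisons then had 4 nuclear members lower in KO controls and 1 higher in KO senescent cells. With the exon length offset and no block, the nuclear counts were 4 and 53 in WT and 8 and 37 in KO, and the mitochondrial ones 0 and 5 in WT and 1 higher in KO. Then 1 member was past a log2 fold change of 1 in WT, 1 was lower in KO controls and 10 were higher in KO senescent cells. mt-Nd1 in WT turned to 0.035 (adjusted p = 0.583) with total counts, and mt-Nd2 in WT to -0.029 (adjusted p = 0.695) with the exon length offset. For named genes that passed in the main fit, 1210 values under the alternatives kept their direction and still passed, 123 no longer passed and 3 changed sign. Named genes that passed only under an alternative are not in these counts. The cause of these shifts was not tested.

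With DESeq2 size factors, the DESeq2 Wald test, no filter on low counts, or only the groups compared, 1 member in WT was past a log2 fold change of 1. With DESeq2 size factors 8, and with only the groups compared 9, nuclear members were higher in KO senescent cells. Without the filter, 0 mitochondrial members were higher in WT. Without the filter, and also with only the groups compared, 1 nuclear member was lower in KO controls.

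Replicate numbers were not shown to pair the libraries, although 3 libraries per group cannot exclude pairing. The deviations of libraries with the same number correlated at 0.015, 0.043 and 0.11 in WT, and at -0.13, 0.045 and -0.095 in KO, and not every library correlated best with its own number. With the replicate block, 1 mitochondrial member was lower in WT and 3 nuclear members had a higher response in KO. With the block and the exon length offset together, the nuclear counts were 3 and 51 in WT and 7 and 34 in KO, the mitochondrial ones 0 and 4 in WT and 1 higher in KO, and mt-Nd2 in WT was at -0.029 (adjusted p = 0.737). In that fit the limit of 1 on the log2 fold change was passed by 1 member in each genotype, 1 nuclear member lower in KO controls and 11 higher in KO senescent cells.

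Leaving out 1 library at a time gave 4 to 7 nuclear members higher and 26 to 34 lower in WT, and 10 to 20 and 10 to 23 in KO. The difference of responses had 2 to 12 higher and 2 to 4 lower. KO controls had 1 to 2 higher and 0 to 8 lower, and KO senescent cells 0 to 9 higher and 2 to 2 lower. Mitochondrial members were 0 to 1 higher and 1 to 2 lower in WT, 1 to 2 higher and 1 to 1 lower in KO, 0 to 1 higher in the difference, 2 to 3 higher in KO controls and 2 to 3 higher in KO senescent cells. Members past a log2 fold change of 1 numbered 1 to 3 in WT, 0 to 3 in KO, 1 to 3 in the difference, 3 to 3 in KO controls and 2 to 4 in KO senescent cells. At totals of 23923030 to 31736083 counts, 3 counts equal 0.0945 to 0.125 CPM, which limits Cox6a2, Cox7a1, Cox7b2 and Cox8b.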
